A study of Mus musculus with 42 samples.

Results

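The cytosolic ribosome is built from ribosomal RNA and a fixed set of ribosomal proteins, which in mammals are each encoded, with few exceptions, by a single expressed gene. Genes named Rpl or Rplp encode proteins of the large subunit, which joins amino acids, and genes named Rps or Rpsa encode proteins of the small subunit, which reads the mRNA. Most of their mRNAs begin with a run of pyrimidines, the TOP motif, through which mTOR signalling and the RNA-binding protein Larp1 control their translation, and cells that grow and divide make more ribosomes. A few genes have paralogs with a narrower use. Rpl3l replaces Rpl3 in skeletal and heart muscle, and Rpl39l is best known from male germ cells.

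The genes described here are the rows of both count tables whose Ensembl identifier maps to a protein-coding mouse gene named Rpl or Rps followed by a digit, or to Rpsa, Rplp0, Rplp1 or Rplp2, without the Rps6k kinases and names with -ps. The rule gave 86 genes in each tissue, of 36604 genes listed for joint soft tissue and 54752 for lymph nodes. Of these 86, 52 carry large-subunit names and 34 small-subunit names, and they lie on 19 chromosomes. The rule also takes in a pair of genes that are not structural parts of the ribosome, Rps19bp1 and Rpl7l1, and it leaves out ribosome components with other names, such as Fau and Rack1. Enough reads for testing were found for 84 of the 86 genes in joint tissue, all but Rpl10l and Rps27rt. In nodes 85 passed, all but Rpl10l, which had no read in any node library.

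The RNA sequencing libraries were made from wild-type C57BL/6 animals, to follow repair of the joint after knee arthroplasty and the lymph nodes that drain the joint. Joint soft tissue formed 6 groups of 4 libraries, labelled RST on days 3, 7, 14, 21 and 35 and LST on day 35. LST was sampled on day 35 only, so RST days 3, 7, 14 and 21 differ from it in day as well as in label. In those comparisons the parts of day and label cannot be told apart. What RST and LST stand for is not given, and both are used as names. Lymph nodes formed 6 groups of 3 libraries, labelled Implant, ContraImplant and NoImplant, each on day 7 and on day 14. The sample names pair each Implant node with the ContraImplant node of one animal, and NoImplant nodes come from other animals. By the column names of the node table, the Implant node is from the operated side, the ContraImplant node from the side of the same animal without surgery, and the NoImplant animals had no surgery. The labels give no age or sex. Whether the joint replicates come from different animals is not stated, so their p-values rest on a spread that could be technical.

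Joint libraries held 17842090 to 28024003 counts and node libraries 22041900 to 44371001. The joint tissue was rich in skeletal muscle: 20 mature muscle genes, among them Acta1, Ckm and the fast myosins, held 12.2 to 16.4% of all counts in RST day 3 libraries and 22.2 to 23.4% in LST libraries. The nodes carried lymphocyte markers, with the T cell gene Cd3e at 167 ± 16.3 CPM in NoImplant day 14 nodes (SD, n = 3). One library stood apart for ribosomal protein genes, RST day 3 replicate 1, which was also the shallowest. Its effect on the counts and on several of the genes is given beside them. In bulk tissue, fewer cells of a type and less RNA per cell cannot be told apart.

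Many ribosomal protein genes have near-identical processed copies elsewhere in the genome, and how the authors counted reads that fit several places is not given in the sources used here. The median gene of the 86 had 64.2% of its 50-base exon windows found in no other annotated gene, and 29 genes had under 50%. Windows of Rpl3l and Rpl39l were 100% unique, those of Rps3 97.2%, of Rpl39 83.5%, of Rps27l 83.8%, of Rpl3 32.9% and of Rpl10 26.3%. Levels of one gene should therefore not be read across the tissues. Rps6, a small-subunit protein with 15.4% unique windows, had 132 to 136 CPM in LST libraries and 3.56 to 7.07 CPM in all node groups of day 7.

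Ribosomal protein genes together took up a larger share of the counts early in RST tissue than later. Their share was 3.34, 2.55, 2.28 and 2.30% in the RST day 3 libraries, 2.14, 2.04, 2.50 and 2.57% on day 7, and 1.49, 1.68, 1.43 and 1.43% on day 14. On day 21 the RST libraries had 1.32, 1.42, 1.28 and 1.43%, and on day 35 they had 1.18, 1.23, 1.44 and 1.33%, against 1.23, 1.21, 1.22 and 1.17% in the LST libraries. Every RST library of days 3, 7, 14 and 21 lay above the highest LST library, and the day 35 libraries overlapped the LST range. The 95% Wilson interval of a single library's share was at most 0.0167 percentage points wide in joint tissue and 0.0126 in nodes, and covers counting error only. In nodes the share was 1.88 to 2.18% in Implant, 1.94 to 2.30% in ContraImplant and 2.12 to 2.49% in NoImplant nodes on day 7. On day 14 it was 1.95 to 2.28% in Implant, 2.08 to 2.32% in ContraImplant and 2.06 to 2.54% in NoImplant nodes. The node groups overlapped on both days.

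**Figure D1:**
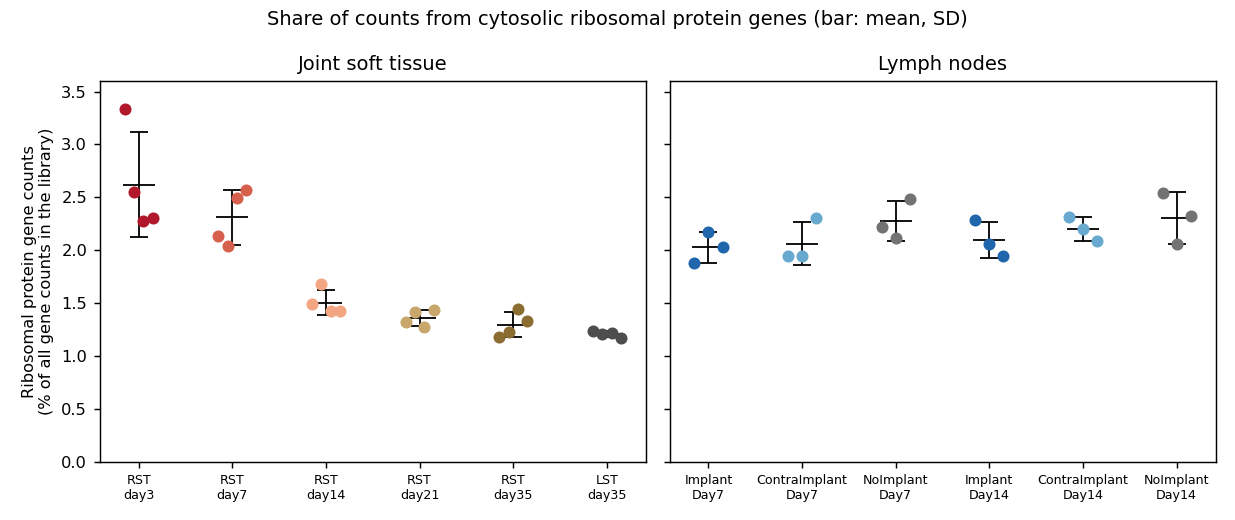
Share of all gene counts held by the 86 ribosomal protein genes (vertical axis, percent) in each joint soft tissue library (left) and lymph node library (right), 1 point per library with the group mean and SD. RST day 3 averaged 2.62%, or 2.38% without replicate 1, and LST day 35 averaged 1.21%, while the 6 node groups averaged 2.03 to 2.31% and overlapped.

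Within a tissue the genes differed widely in level. In joint tissue the median of the 86 genes was 162 CPM, read counts scaled to a common TMM library size. The highest means over all 24 libraries were Rplp0 at 808 CPM, Rpl4 at 677 CPM, Rps2 at 566 CPM, Rplp1 at 481 CPM and Rpl3l at 456 CPM. Per kb of exon, taken over all annotated transcripts of a gene, Rplp1 was at 964, Rplp0 at 487, Rpl4 at 337, Rps2 at 309 and Rpl3l at 277 CPM per kb. This scale compares different genes only roughly. The length of the expressed mRNA can be shorter, and how multiply mapping reads were counted is not given. The lowest were Rpl13a at 10.1 CPM, Rpl39l at 2.33, Rps10 at 1.43, Rpl36al at 0.564 and Rpl24 at 0.287 CPM. Rpl24 and Rps10 encode proteins present in every ribosome, and their deposited counts lie far below those of most other genes of the set. In nodes Rps3 at 2066, Rpl8 at 2053, Rpl4 at 2007 and Rplp0 at 1228 CPM were among the 5 highest, and the lowest were Rpl24 at 1.5, Rps27rt at 0.975, Rpl23a at 0.677, Rpl39l at 0.620 and Rpl3l at 0.489 CPM. The 5 highest genes made up 40.5% of the summed node CPM of the 86 genes, and 18.0% of the joint sum. Across the 86 genes the unique share of a gene and its level per kb had a Spearman rho of -0.10 in joint tissue and 0.28 in nodes, a description over genes that share their libraries.

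On day 3 nearly the whole ribosomal protein set was higher in RST than in LST tissue. In edgeR's quasi-likelihood fit, with p-values adjusted by Benjamini-Hochberg over all genes tested, 81 of 84 genes rose and 1 fell at an adjusted p below 0.05, in a comparison in which 68.7% of all genes were called, 38.6% higher and 30.1% lower. The median log2 fold change was 0.65 over the 84 genes and 0.09 over all genes tested. Both subunits took part: 45 of 46 large-subunit genes rose with a median of 0.64, and 30 of 31 small-subunit genes with a median of 0.67, paralogs and the non-structural Rps19bp1 left out. The genes not called were Rpl36 of the large subunit, at 0.11 ± 0.11 (log2 ± SE, adjusted p = 0.395), and Rps2 of the small subunit, at 0.16 ± 0.10 (adjusted p = 0.162). Without RST day 3 replicate 1 the counts were 79 higher and 1 lower with a median of 0.52, and 65.4% of all genes were called. The mean share of counts was then 2.38 ± 0.15% (SD, n = 3). Genes with at least 50% unique windows had 55 of 56 rises and a median of 0.63, and those under 50% had 26 of 28 and 0.68.

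The largest day 3 rises outside the paralogs and Rpl3 were in Rpl13a, Rps10, Rps12 and Rpl41. Rpl13a, which lies at the large-subunit surface and also acts in the GAIT complex that silences inflammatory mRNAs in human myeloid cells, had 25.2, 20.4, 15.9 and 16.4 CPM in RST day 3 libraries against 5.65, 5.43, 6.18 and 5.37 CPM in LST libraries. All 4 day 3 values lay above the LST range, and the log2 fold change was 1.78 ± 0.15 (adjusted p = 1.57e-09). Rps12, a small-subunit protein of the beak, had 598, 417, 376 and 378 CPM in RST day 3 libraries and 176.5, 190, 178 and 172 CPM in LST libraries, a log2 fold change of 1.31 ± 0.12 (adjusted p = 4.91e-09). Rps10 rose by 1.45 ± 0.23 (adjusted p = 6.95e-06) at a mean of 35.0 counts per library, and Rpl41, the smallest protein of the ribosome, by 1.21 ± 0.15 (adjusted p = 2.04e-07).

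By day 7 the rise was smaller and less uniform. Of the 84 genes 56 were higher and 1 was lower in RST day 7 than in LST tissue, where 76.1% of all genes were called, 41% higher and 35.1% lower. The median log2 fold change was 0.39, against 0.08 over all genes. The large-subunit genes had 31 of 46 rises and the small-subunit genes 22 of 31. Rps12 stood at 342, 326, 389 and 398 CPM on day 7, all above its LST values, with a log2 fold change of 1.02 ± 0.12 (adjusted p = 9.42e-08). Rpl4, among the most abundant, had 686, 606, 641 and 650.5 CPM on day 7 against 677, 675, 673.5 and 642 CPM in LST tissue, and was not called (-0.05 ± 0.08, adjusted p = 0.628). Set directly against RST day 3, 57 of 84 genes were lower on day 7 and 1 was higher, where 41.2% of all genes were called, 18.7% higher and 22.5% lower; the median was -0.29, against -0.05 over all genes. With library totals 11 were lower and 1 higher, at a median of -0.18, against 0.05 over all genes. The count called, 58, was 23 without RST day 3 replicate 1, where 36% of all genes were called. That share of the set lies below the background, and the median was -0.15, against -0.04 over all genes. Without RST day 7 replicate 2 the count was 31, where 35.3% of all genes were called.

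The set came close to LST levels by day 14. Between RST day 14 and RST day 7, 58 of 84 genes fell and 1 rose, where 38.9% of all genes were called, 20.9% higher and 18% lower, with a median of -0.32 against -0.02 over all genes. Without RST day 7 replicate 4 the count called was 37, where 29.8% of all genes were called. Against LST, 14 genes were higher and 2 lower on day 14, 16 in all, or 19% of the set, where 57.9% of all genes were called, 33.4% higher and 24.5% lower. This share lies below the background, and the median of 0.06 is close to the 0.03 of all genes. The split between higher and lower on day 14 moved with the scaling: it was 9 and 5 with DESeq2's size factors in edgeR, 10 and 7 with DESeq2, and 56 and 0 with library totals alone. The scaling by totals also moved the median of all genes, to 0.33 on day 14, 0.61 on day 3 and 0.71 on day 7. The median of the set was then 0.35 on day 14, 1.18 on day 3 and 1.025 on day 7. The genes called lower on day 14 were Rps27l and Rpl36. Rpl36 had 103, 99.0, 110.0 and 113 CPM in RST day 14 libraries against 131, 135, 128 and 117 CPM in LST libraries, at -0.27 ± 0.11 (adjusted p = 0.0458). Its value was 0.02 (adjusted p = 0.881) with library totals. Its call was also lost in 6 of the 8 fits that left out 1 library. Without RST day 14 replicate 2 the count called on day 14 was 10, where 46.8% of all genes were called.

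Few genes of the set still differed from LST after day 14. On day 21, 5 of 84 were higher and 0 lower, where 27.1% of all genes were called, 21.7% higher and 5.42% lower, and the 5 were Rpl39l, Rpl3, Rps10, Rps12 and Rps14. Rps12 had 218, 246.5, 222 and 257 CPM in RST day 21 libraries, above all 4 LST values, at 0.40 ± 0.12 (adjusted p = 0.0158). Rps14, a small-subunit platform protein whose loss underlies the anaemia of human 5q deletion, was at 0.27 ± 0.10 (adjusted p = 0.0422). On day 35, 2 of 84 were higher, Rpl39l and Rpl36al, where 2.97% of all genes were called, 2.92% higher and 0.0495% lower. The median of the set was 0.09 on days 21 and 35, against 0.02 over all genes. On day 35, 80 of the 84 genes, which share their libraries, lay above 0, and the median was 0.03 without RST day 35 replicate 3. None of the 84 was called between RST day 21 and RST day 14, where 0.737% of all genes were, 0.0867% higher and 0.65% lower; 3 genes had an unadjusted p below 0.05, or 3.57% against 25.7% of all genes, and DESeq2 called 0. Leaving out RST day 21 replicate 2 or 4 left 2 genes called on day 21, and leaving out LST replicate 1, 2 or 3 left 3. In these fits 15.2, 21.4, 23.6, 20.6 and 22% of all genes were called, in that order. Between RST day 35 and RST day 21 only Rpl39l was called, at -1.05 ± 0.27 (adjusted p = 0.0348) with overlapping ranges, a call lost without RST day 21 replicate 2 or 4 or RST day 35 replicate 2, 3 or 4, where 3.97% of all genes were called, 0.0805% higher and 3.89% lower. The LST libraries and each RST day are shared between neighbouring comparisons, so these counts are not independent of each other.

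**Figure D2:**
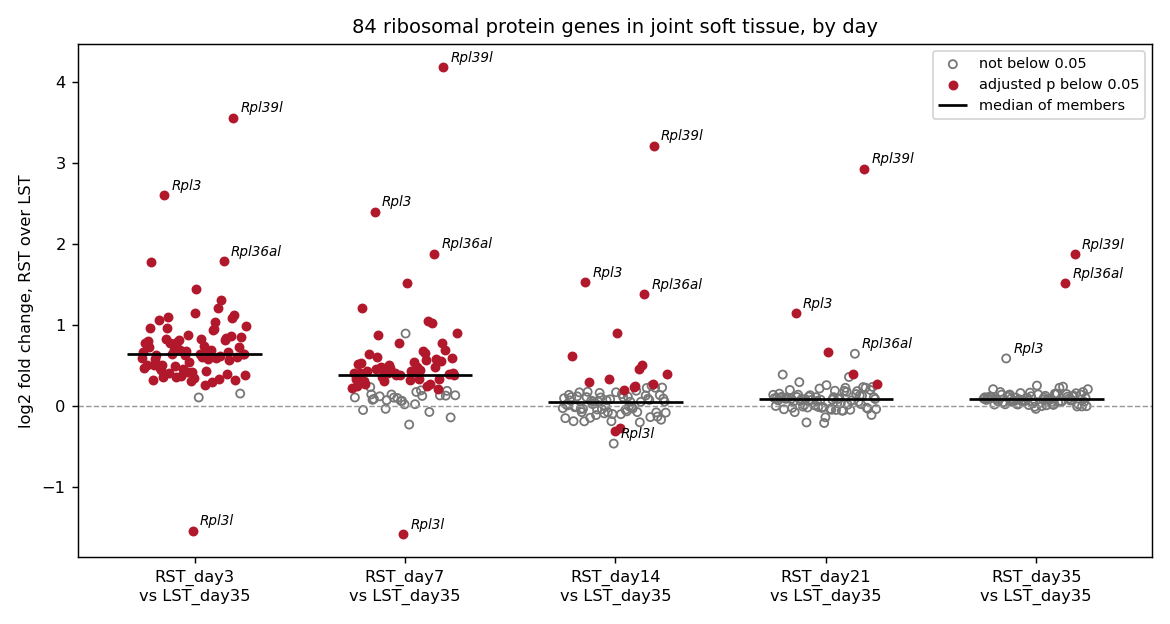
Log2 fold change of RST over LST (vertical axis) for each of the 84 ribosomal protein genes tested, by RST day; filled points passed an adjusted p of 0.05 and the bar is the median. The cloud lies above 0 on days 3 and 7, with medians of 0.65 and 0.39, and around 0 on day 14. On days 21 and 35 the median is 0.09, with 63 and 80 of the 84 genes above 0. Rpl39l is the highest gene on every day, and Rpl3l lies below the others on days 3 and 7.

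The stalk of the large subunit, which recruits and activates the elongation factors, is formed by Rplp0 and the acidic pair Rplp1 and Rplp2. Rplp0 had 1139, 896.5, 900.5 and 867 CPM in RST day 3 libraries against 777, 765, 795 and 752 CPM in LST libraries. All day 3 values lay above the LST range, and the log2 fold change of 0.30 ± 0.09 (adjusted p = 0.00643) was among the smallest of those called. Rplp1 had 860, 599, 573 and 580.3 CPM on RST day 3 and 420, 446, 411 and 392 CPM in LST tissue, at 0.65 ± 0.11 (adjusted p = 1.29e-05). Rplp2 had 389.9, 252, 250 and 248.5 CPM on RST day 3 and 193, 192, 189 and 177 CPM in LST tissue, at 0.60 ± 0.12 (adjusted p = 8.11e-05). In all 3 genes replicate 1 was far above the other 3 libraries of day 3, and without it the log2 fold changes were 0.20 for Rplp0 (adjusted p = 0.0392), 0.49 for Rplp1 (adjusted p = 1.72e-05) and 0.41 for Rplp2 (adjusted p = 0.000143). On day 7 only Rplp1 of the stalk genes was called, at 0.37 ± 0.11 (adjusted p = 0.00344), and from day 14 on none of them was.

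Rpsa, a small-subunit protein that also serves as a laminin receptor, followed the median of the set. It had 755, 583, 513 and 535 CPM in RST day 3 libraries, 479, 436, 475 and 512 CPM on day 7, and 350.4, 346, 362 and 340.1 CPM in LST libraries. Both early days lay wholly above LST, with log2 fold changes of 0.77 ± 0.10 (adjusted p = 5.02e-07) on day 3 and 0.44 ± 0.10 (adjusted p = 0.000332) on day 7. Without RST day 3 replicate 1 the day 3 value was 0.64 (adjusted p = 6.7e-07). On day 14 the value was 0.06 ± 0.10 (adjusted p = 0.627).

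The muscle paralog and its parent moved in opposite directions. Rpl3 and Rpl3l encode alternative forms of the large-subunit protein that reaches toward the peptidyl transferase centre. Rpl3 (ENSMUSG00000060036, mm10 chr15:80077791-80091868, minus strand) had 381, 302, 232 and 248 CPM on RST day 3, 229, 218, 281 and 280.4 CPM on day 7, 141, 172, 116 and 124 CPM on day 14, 89.25, 140.1, 80.2 and 114 CPM on day 21 and 65.8, 63.35, 81.1 and 78.2 CPM on day 35, against 51.0, 43.0, 50.35 and 47.3 CPM in LST libraries. Every RST library of every day lay above the highest LST library. The log2 fold changes were 2.60 ± 0.18 (adjusted p = 1.30e-10), 2.40 ± 0.18 (2.42e-10), 1.53 ± 0.17 (2.50e-07) and 1.14 ± 0.17 (3.23e-05) on days 3, 7, 14 and 21. On day 35 the value of 0.59 ± 0.17 did not pass, with an adjusted p of 0.0608.

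Rpl3l (ENSMUSG00000002500, chr17:24727820-24736143, plus strand) ran the other way. It had 212, 168, 260.3 and 246 CPM on RST day 3, 309, 252, 172 and 125 CPM on day 7, 485, 346.5, 541 and 489.7 CPM on day 14, 598, 432, 627 and 564 CPM on day 21 and 616, 638, 699.6 and 596 CPM on day 35, against 656, 647, 648 and 609 CPM in LST libraries. Days 3 and 7 lay wholly below LST, and it was the one gene of the set called lower on those days, at -1.53 ± 0.20 (adjusted p = 7.32e-07) and -1.58 ± 0.20 (adjusted p = 3.31e-07). It was also the one gene of the set that rose between RST day 14 and RST day 7, by 1.12 ± 0.20 (adjusted p = 0.000266), and against LST it was at -0.46 ± 0.20 on day 14 (adjusted p = 0.0511) and -0.01 on day 35 (adjusted p = 0.997).

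The ratio of the 2 genes within a library does not depend on scaling between libraries. Rpl3l counts over Rpl3 counts averaged -0.39 ± 0.54 (log2, SD, n = 4) on RST day 3, -0.31 ± 0.75 on day 7, 1.75 ± 0.52 on day 14, 2.41 ± 0.59 on day 21 and 3.15 ± 0.17 on day 35, against 3.74 ± 0.11 in LST tissue. Each RST day differed from LST by an exact two-sided permutation test of 4 libraries against 4, at the smallest p possible, 0.0286, or 0.0476 after adjustment over 20 ratio tests. The muscle list moved with this pair. Its summed share was 14.5 ± 2.16% on RST day 3, 14.03 ± 2.27% on day 7, 19.7 ± 1.76% on day 14, 22.3 ± 1.22% on day 21 and 22.1 ± 0.41% on day 35, against 22.9 ± 0.55% in LST tissue, and 20 of its 20 genes fell on days 3 and 7, with medians of -1.23 and -1.35 (15 and 17 of 20 with library totals). With TMM 30.1% of all genes were called lower on day 3 and 35.1% on day 7. The elongation factor pair Eef1a1, the general form, and Eef1a2, the form of adult muscle and neurons, showed the same split. On day 3 they were at 2.15 ± 0.16 (adjusted p = 3.07e-10) and -1.02 ± 0.14 (adjusted p = 8.99e-07). The part of muscle content in these ratios was not tested.

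Rpl39l (ENSMUSG00000039209, chr16:10170226-10174911, plus strand) had the largest fold change of the set on every RST day, from a low base. It had 3.76, 2.46, 3.59 and 3.09 CPM on RST day 3, 4.67, 5.31, 5.17 and 4.58 CPM on day 7, 1.935, 3.545, 2.305 and 2.20 CPM on day 14, 2.09, 2.86, 1.32 and 1.93 CPM on day 21 and 1.52, 1.08, 0.717 and 0.667 CPM on day 35, against 0.377, 0.228, 0.170 and 0.307 CPM in LST libraries. Every RST library lay above every LST library. These levels rest on 71 to 84 reads per library on day 3, 119 to 167 on day 7 and 13 to 32 on day 35, against 4 to 8 in LST tissue. The log2 fold changes were 3.56 ± 0.31 (adjusted p = 2.51e-09) on day 3, 4.18 ± 0.31 (2.57e-10) on day 7, 3.21 ± 0.32 (6.45e-08) on day 14, 2.93 ± 0.33 (1.71e-06) on day 21 and 1.88 ± 0.36 (0.00331) on day 35. It was the one gene of the set that was higher on RST day 7 than on RST day 3, by 0.62 ± 0.22 (adjusted p = 0.0305). That call was lost without RST day 3 replicate 2 or 4 or RST day 7 replicate 2 or 3, at adjusted p-values of 0.0635 to 0.102. It fell by 0.97 ± 0.23 between RST day 14 and RST day 7 (adjusted p = 0.00234).

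Its parent Rpl39 lines the exit tunnel of the large subunit. Rpl39 (chrX:37082520-37085402, minus strand) had 121, 82.3, 78.35 and 77.5 CPM on RST day 3, 72.4, 68.3, 87.0 and 81.0 CPM on day 7, and 42.3, 45.2, 41.9 and 38.4 CPM in LST libraries, with log2 fold changes of 1.10 ± 0.13 (adjusted p = 1.23e-07) and 0.88 ± 0.13 (adjusted p = 1.70e-06). Without RST day 3 replicate 1 the day 3 value of Rpl39 was 0.92 (adjusted p = 1.82e-07). Rpl39l over Rpl39 averaged -4.78 ± 0.29 on RST day 3, -3.96 ± 0.20 on day 7, -4.39 ± 0.22 on day 14, -4.68 ± 0.37 on day 21 and -5.58 ± 0.63 on day 35 (log2, SD, n = 4), against -7.21 ± 0.50 in LST tissue. All 5 days differed from LST at the smallest exact permutation p, 0.0476 after adjustment. The cell cycle list, 18 genes such as Mki67 and Top2a, held 0.0496 ± 0.0099% of counts on RST day 3, 0.0396 ± 0.0044% on day 7 and 0.0059 ± 0.0007% on day 35, against 0.0051 ± 0.0005% in LST tissue, and its part in the Rpl39l values was not tested.

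**Figure D3:**
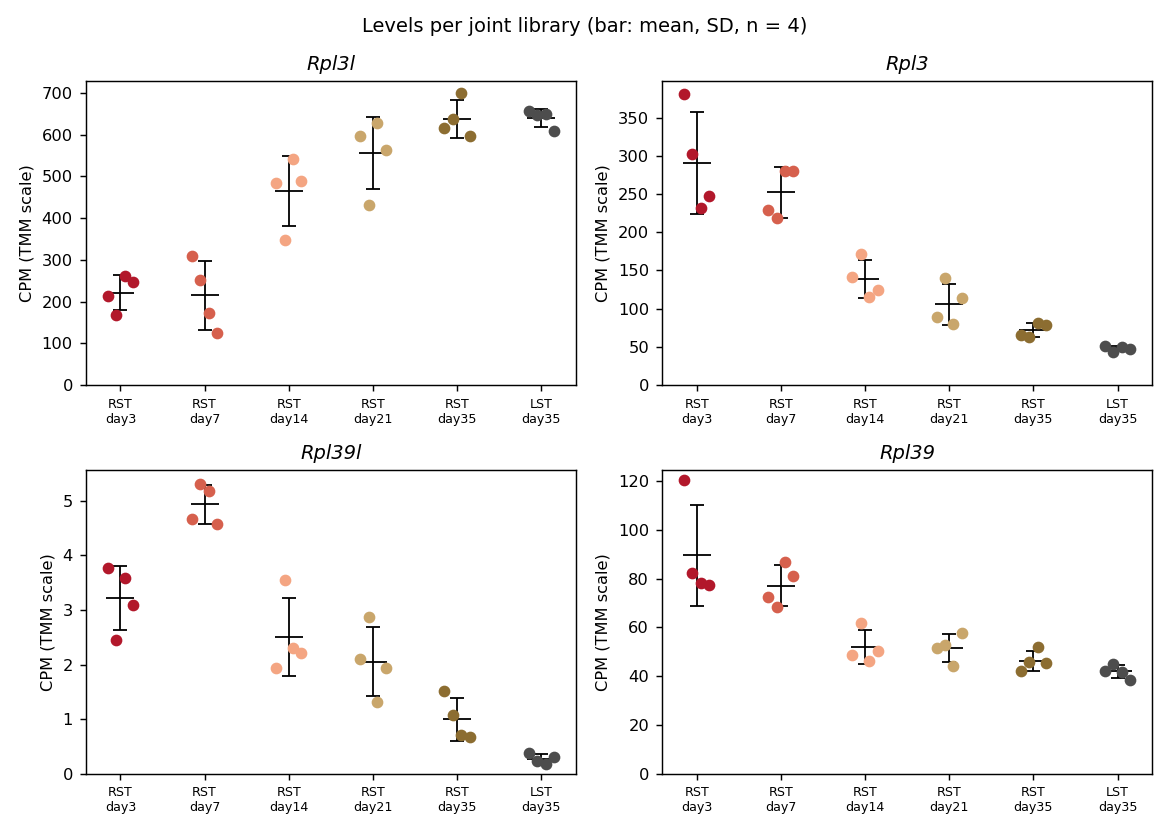
Level of Rpl3l, Rpl3, Rpl39l and Rpl39 (vertical axis, CPM on the TMM scale, each panel with its own scale from 0) in every joint soft tissue library, by group, with the mean and SD of 4 libraries. Rpl3l lies at 125 to 309 CPM on RST days 3 and 7 and at 609 to 656 CPM in LST, Rpl3 runs the other way, and Rpl39l peaks on day 7 at 4.58 to 5.31 CPM against at most 0.377 CPM in LST.

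Of the other paralogs, Rps27l, a p53 target in human and mouse cells, fell below LST on day 14, with 59.9, 57.8, 67.6 and 64.3 CPM against 73.95, 90.09, 73.6 and 71.8 CPM (-0.31 ± 0.10, adjusted p = 0.0113). That call was lost without LST replicate 2, the library at 90.09 CPM, with -0.23 (adjusted p = 0.0618), and with library totals, with -0.02 (adjusted p = 0.871). On day 3 it was higher at 0.35 ± 0.10 (adjusted p = 0.00341), with ranges that overlapped, and its parent Rps27 was higher at 0.41 ± 0.11 (adjusted p = 0.00231). Without RST day 3 replicate 1 these were 0.22 for Rps27l (adjusted p = 0.0252) and 0.25 for Rps27 (adjusted p = 0.0166). The log2 ratio of Rps27l to Rps27 differed from LST by -0.20 on day 21 and -0.12 on day 35, each at an adjusted exact permutation p of 0.0476, with group means of -0.86 and -0.78 against -0.66. On days 3, 7 and 14 the differences of -0.04, -0.09 and -0.16 did not pass.

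Rpl22l1 and its parent Rpl22, large-subunit proteins of which Rpl22 restrains Rpl22l1 in mouse cells, rose together on day 3, by 0.69 ± 0.13 (adjusted p = 6.30e-05) and 0.78 ± 0.08 (adjusted p = 4.06e-08). Their ratio differed from LST by -0.15 to -0.04 over the 5 days and passed on none. Rpl22l1 fell by 0.49 ± 0.13 between RST day 7 and RST day 3 (adjusted p = 0.00393). Rpl36al had 0.975, 0.865, 0.726 and 0.528 CPM on RST day 3 and 0.522, 0.593, 0.765 and 0.667 CPM on day 35, against 0.188, 0.228, 0.298 and 0.1535 CPM in LST libraries. Every library of both days lay above LST, at 1.79 ± 0.28 (adjusted p = 5.92e-06) and 1.51 ± 0.29 (adjusted p = 0.00357), on a mean of only 13.6 counts per library. On day 21 it was at 0.65 (adjusted p = 0.239). Its parent Rpl36a rose by 1.07 ± 0.12 on day 3 (adjusted p = 6.17e-08) and was at 0.18 ± 0.12 on day 35 (adjusted p = 0.643). Without RST day 3 replicate 1 the day 3 values were 0.89 for Rpl36a (adjusted p = 4.95e-08), 0.67 for Rpl22 (adjusted p = 3.51e-08) and 0.52 for Rpl22l1 (adjusted p = 0.000325). Rpl7l1, a nucleolar homolog of Rpl7, rose by 0.40 ± 0.07 (adjusted p = 3.45e-05) on day 3 and Rpl7 by 0.60 ± 0.07 (adjusted p = 2.74e-07). Rps19bp1, a nucleolar protein that binds Rps19, rose by 0.50 ± 0.15 on day 3 (adjusted p = 0.0046) and fell by 0.53 ± 0.15 between RST day 7 and RST day 3 (adjusted p = 0.00588). Of Rpl10l, a retrocopy of Rpl10 used in male germ cells, 3 of 24 joint libraries held any read.

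RefSeq start windows (GRCm38.p6) were found for 66 of the 86 genes. A TOP-like start, a C within 5 bases of the start followed by at least 4 pyrimidines, was present in 45.5% of those 66 genes, in 24.6% of 69 mitochondrial ribosomal protein genes and in 21.2% of all 27025 genes with a window. CCGGAA, the core of ETS factor sites, on either strand of the 300 bases, was present in 54.5% of the set, 58.0% of the mitochondrial genes and 16.7% of all genes. AAGATGG, the core of YY1 sites, was present in 15.2, 18.8 and 7.28%. The paralogs whose values depart most from the set are shown beside Rps27l and Rpl13a, which have a TOP-like start, given in capitals. Each sequence runs from 40 bases before to 20 bases after the RefSeq start, read 5′ to 3′.
Rpl3l (chr17:24727786-24727845, plus strand): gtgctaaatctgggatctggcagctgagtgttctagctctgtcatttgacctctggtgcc
Rpl39l (chr16:10170188-10170247, plus strand): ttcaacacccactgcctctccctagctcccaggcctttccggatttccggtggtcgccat
Rps27l (chr9:66946046-66946105, plus strand): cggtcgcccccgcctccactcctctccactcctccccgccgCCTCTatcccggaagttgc
Rpl13a (chr7:45128726-45128785, minus strand): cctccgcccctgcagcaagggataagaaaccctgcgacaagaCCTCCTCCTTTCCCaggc
By this rule Rpl3l and Rpl39l have no TOP-like start at the RefSeq position, which is a statement about these letters only. In Rpl39l a run of pyrimidines ends directly before that position, and the GENCODE start lies 2 bases upstream. The result for Rpl39l therefore depends on the start used. Rplp0, Rps3, Rps12, Rpl4, Rpl41 and Rpl22 also had no TOP-like start by this rule at the RefSeq position. The GENCODE start lies 12 bases from the RefSeq start in Rpl4, 16 in Rpl22, 29 in Rps3, 66 in Rps12 and 137 in Rpl41. In Rpl3l the distance is 6 bases, and in Rplp0 the starts coincide. Except in Rplp0, these results can therefore also depend on the start used, and GENCODE starts were not tested.

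Other genes of ribosome production and translation were taken from the same fits, and their direction against LST depended in part on the scaling. Of the components outside the naming rule, Fau, which encodes a fusion of ubiquitin-like FUBI and the small-subunit protein eS30, rose by 0.97 ± 0.11 on day 3 (adjusted p = 5.63e-08), and Rack1, a scaffold on the small subunit, by 0.65 ± 0.08 (adjusted p = 6.06e-07). Of 30 genes of ribosome assembly and rRNA synthesis, 17 were higher and 4 lower on day 3 with a median of 0.22, and 8 higher and 13 lower on day 7 with a median of -0.15, on the TMM scale. These counts stand beside 68.7% of all genes called on day 3 and 76.1% on day 7. The nucleolar proteins Npm1, at 1.32 ± 0.10 (adjusted p = 2.79e-10), and Nop58, at 1.19 ± 0.11 (adjusted p = 6.12e-09), led the day 3 rises. Rrn3, the RNA polymerase I initiation factor, was at -0.37 ± 0.07 (adjusted p = 5.65e-05) with TMM and at 0.16 (adjusted p = 0.0215) with totals. With library totals the counts were 30 higher and 0 lower on day 3 and 22 and 1 on day 7. The medians of the list were then 0.75 and 0.49, against 0.61 and 0.71 over all genes. Between RST day 7 and RST day 3, 28 of the 30 were lower and 0 higher with TMM, where 41.2% of all genes were called, and 14 and 0 with totals.

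Genes for the mitochondrial ribosome, a separate machine that translates the mitochondrial genome, lay below the median gene on the early days, while their direction against LST depended on scaling. On the TMM scale, of 77 tested, 6 rose and 46 fell on day 3, and 0 rose and 69 fell on day 7. On day 14, 0 rose and 57 fell, and on day 21, 0 rose and 5 fell. These counts stand beside 38.6% of all genes called higher and 30.1% lower on day 3, and 41% and 35.1% on day 7. The shares of all genes were 33.4% and 24.5% on day 14, and 21.7% and 5.42% on day 21. With library totals, an alternative added after seeing the data, 36 were higher and 4 lower on day 3, 16 and 22 on day 7, 1 and 9 on day 14, and 0 and 1 on day 21. The median was -0.34 on day 3 and -0.69 on day 7 with TMM, against 0.09 and 0.08 over all genes. It was 0.18 and -0.06 with totals, against 0.61 and 0.71 over all genes. Their summed share of counts was 0.283 to 0.369% in RST day 3, 0.245 to 0.269% in day 7 and 0.2403 to 0.279% in day 14 libraries, against 0.269 to 0.286% in LST libraries. Between RST day 14 and RST day 7, 46 of the 77 were higher and 0 lower with TMM. Of all genes, 20.9% were called higher and 18% lower there. With totals 13 were higher and 12 lower, at a median of -0.01, against -0.35 over all genes. The mitochondrially encoded genes held 6.08 ± 0.46% of counts on RST day 3, 4.62 ± 0.84% on day 7 and 7.62 ± 1.25% on day 14, against 10.5 ± 0.58% in LST tissue.

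Of 27 translation initiation factors, 12 were higher and 9 lower on day 3 (median 0.13) and 3 higher and 16 lower on day 7 (median -0.21) on the TMM scale. The day 3 counts, 21 of 27 called, stand beside 68.7% of all genes called, and the day 7 counts beside 76.1%. With library totals they were 24 and 0 on day 3 and 17 and 4 on day 7, and the share of counts was 0.709 ± 0.045% on day 3 and 0.579 ± 0.030% on day 7, against 0.521 ± 0.003% in LST tissue. The helicase Eif4a1 rose by 1.66 ± 0.13 on day 3 (adjusted p = 7.10e-10). Eif4g1, the scaffold it binds, was at -0.49 ± 0.09 (adjusted p = 3.35e-05) with TMM and at 0.04 with totals. Of 12 elongation factors and other TOP mRNAs, 6 were higher and 2 lower on day 3, and 5 and 5 on day 7, with 10 and 1, and 9 and 1, by library totals. With totals their medians were 0.93 and 0.69, against 0.61 and 0.71 over all genes. Pabpc1, the poly(A)-binding protein, rose by 1.33 ± 0.11 on day 3 (adjusted p = 1.43e-09). Of 14 regulators of ribosome production, 4 were higher and 9 lower on day 3 with TMM, and 11 and 2 with totals. Their median was -0.22 with TMM, against 0.09 over all genes, and 0.31 with totals, against 0.61. Myc and Eif4ebp1, given next, are among the 4 called higher with TMM. The transcription factor Myc averaged 22.8 ± 4.42 CPM on RST day 3 and 21.8 ± 3.37 CPM on day 7, against 8.00 ± 1.19 CPM in LST tissue (SD, n = 4), at 1.51 ± 0.24 on day 3 (adjusted p = 6.66e-06). Eif4ebp1, which holds back cap-dependent translation, averaged 127 ± 27.5 CPM on RST day 3 and 41.0 ± 1.71 CPM on day 7, against 40.2 ± 3.19 CPM in LST tissue, at 1.66 ± 0.12 on day 3 (adjusted p = 3.19e-10) and 0.03 ± 0.12 on day 7 (adjusted p = 0.844), or 0.66 on day 7 with totals (adjusted p = 7.89e-05). It was lower on RST day 7 than on RST day 3, at -1.64 ± 0.12 (adjusted p = 3.41e-09).

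**Figure D4:**
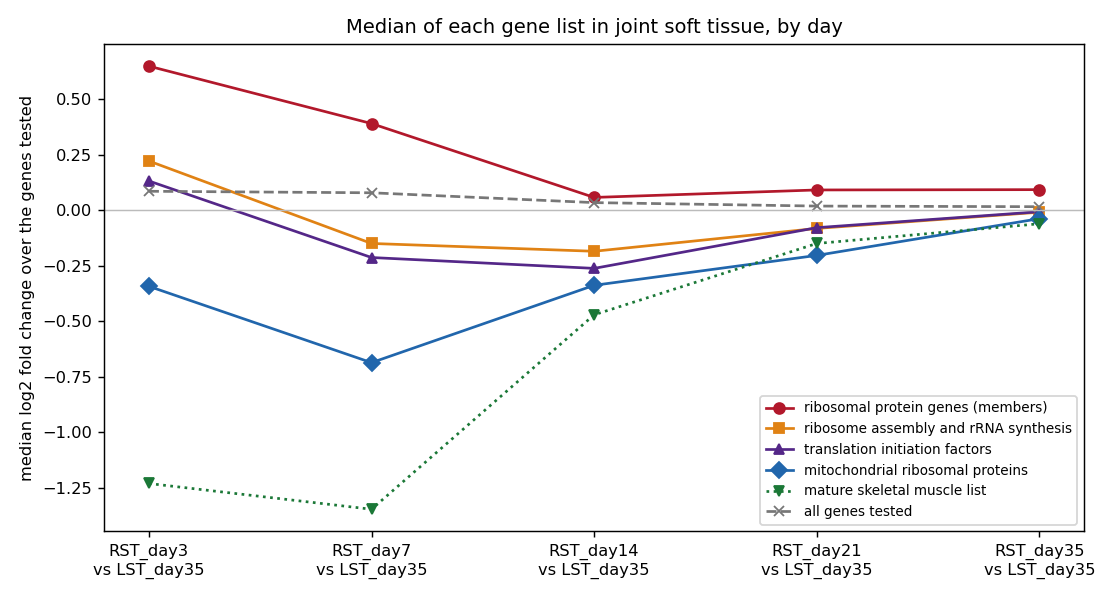
Median log2 fold change of RST over LST (vertical axis) by RST day (horizontal axis) for the ribosomal protein genes, for 4 other gene lists and for all genes tested. The ribosomal protein median is 0.65 on day 3 and 0.06 on day 14, the mitochondrial ribosomal median lies below 0 with -0.69 on day 7 on this TMM scale (-0.06 with library totals), and the muscle list lies lowest on days 3 and 7, at -1.23 and -1.35.

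Markers of other cell types differed between the same groups, and their part in the ribosomal protein values was not tested. The 12 macrophage genes all rose on days 3, 7, 14 and 21, and their summed share was 0.224 to 0.379% in RST day 3 libraries against 0.0090 to 0.0130% in LST libraries. Of 12 activated fibroblast genes, 11 rose on day 3 and 12 on day 7, at a share of 1.11 to 1.41% on day 3 and 3.64 to 5.34% on day 7 against 0.0950 to 0.120% in LST tissue. The mean macrophage share was highest on day 3 and the mean fibroblast share on day 7. The ribosomal protein share was 2.62 ± 0.50% on day 3 and 2.31 ± 0.26% on day 7 (SD). Without RST day 3 replicate 1 the day 3 share was 2.38 ± 0.15%, close to that of day 7. All 18 cell cycle genes rose on day 3. Of 10 adipocyte genes 9 fell on days 3 and 7. Beside these counts, 38.6, 41, 33.4 and 21.7% of all genes were called higher on days 3, 7, 14 and 21. Called lower were 30.1% of all genes on day 3 and 35.1% on day 7. The neutrophil, B cell, T cell, plasma cell and erythroid lists had 2, 3, 3, 3 and 0 members called higher on day 3, at summed shares of at most 0.0274% of counts in any library of that day.

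In lymph nodes few genes of the set passed between groups. Implant against NoImplant nodes on day 7 gave 0 of 85 genes called by edgeR, where 0.0437% of all genes were called, 0.0382% higher and 0.00546% lower. There 22 genes, 25.9% of the set, had an unadjusted p below 0.05, as did 18.2% of all genes, and DESeq2 called 2. The median log2 fold change of the set was -0.15, against -0.00082 over all genes. On day 14, 1 of 85 genes was higher and 2 were lower in Implant than in NoImplant nodes, where 5.97% of all genes were called, 3.44% higher and 2.53% lower, and the median was -0.10. The split was 4 higher and 4 lower by DESeq2 and 3 and 1 with library totals. The 3 calls are close to the threshold, and leaving out any one of 5 of the 6 libraries involved left 0. Without NoImplant day 14 replicate 1 there were 3, of which 2 were higher and 1 lower, where 8.33% of all genes were called.

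The gene called higher was Rpl10, a large-subunit protein needed for the joining of the subunits. It had 32.7, 33.6 and 29.3 CPM in Implant nodes, 26.0, 24.8 and 27.7 CPM in ContraImplant nodes and 25.2, 23.5 and 22.4 CPM in NoImplant nodes on day 14. The Implant nodes lay above both other groups, and the log2 fold change over NoImplant was 0.43 ± 0.11 (adjusted p = 0.0351). On day 7 Rpl10 had 34.9, 36.6 and 34.0 CPM in Implant nodes, 35.1, 26.3 and 25.0 CPM in ContraImplant nodes and 25.4, 27.5 and 27.5 CPM in NoImplant nodes, at 0.39 ± 0.11 over NoImplant (adjusted p = 0.1003). Only 26.3% of the windows of Rpl10 are unique, and whether reads of its copies were counted to it was not tested.

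The genes called lower were Rps3 and Rps27l. Rps3, a small-subunit protein at the mRNA entry site that also acts in DNA repair and NF-kappaB signalling in human cells, had 2037, 1839 and 1874 CPM in Implant nodes, 2115, 2181 and 2052 CPM in ContraImplant nodes and 2562, 2270.0 and 2507 CPM in NoImplant nodes on day 14. The 3 groups did not overlap, with Implant nodes lowest, and the difference from NoImplant was -0.35 ± 0.09 (adjusted p = 0.0354). Rps27l had 33.0, 31.3 and 32.8 CPM in Implant nodes, 37.2, 36.9 and 32.3 CPM in ContraImplant nodes and 39.1, 40.5 and 37.0 CPM in NoImplant nodes, at -0.26 ± 0.07 (adjusted p = 0.0358). On day 7 the values were -0.17 ± 0.09 for Rps3 (adjusted p = 0.325) and 0.04 ± 0.07 for Rps27l (adjusted p = 0.793). The difference between the days did not pass for any of the 85 genes, with 2 at an unadjusted p below 0.05 for Implant over NoImplant, or 2.35% against 5.03% of all genes.

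The remaining node comparisons called 0 of 85 genes by edgeR. Implant against ContraImplant nodes, taken from the same animals, had 7 genes with an unadjusted p below 0.05 on day 7, or 8.24% against 20.6% of all genes, and 3 on day 14, or 3.53% against 8.46%. At an adjusted p, 0.715 and 0% of all genes were called. ContraImplant against NoImplant nodes had 3 on each day, where 7.37 and 5.8% of all genes did, with 0% of all genes called at an adjusted p. Implant day 14 against Implant day 7 had 6, or 7.06% against 8.55% of all genes, with 0% called at an adjusted p, and DESeq2 called 1. For NoImplant day 14 against NoImplant day 7 there were 9, or 10.6% against 18.9% of all genes, with 0.0164% called, and DESeq2 called 2. On day 14 Rpl10, Rps3 and Rps27l were at 0.29 (adjusted p = 0.587), -0.14 (adjusted p = 0.634) and -0.13 (adjusted p = 0.601) in Implant over ContraImplant nodes.

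The log2 fold change of Implant nodes was lower for genes of higher level across the 85 genes: the Spearman rho between mean CPM per kb and the log2 fold change of Implant over NoImplant was -0.49 on day 7 and -0.62 on day 14, and for Implant over ContraImplant -0.57 and -0.55. For ContraImplant over NoImplant it was -0.11 on day 7 and -0.46 on day 14. Between the days it had the other sign, at 0.55 for Implant and 0.64 for NoImplant day 14 over day 7, with no surgery in the NoImplant animals. This is a description over genes that share their libraries, and the comparisons share nodes. Genes with at least 50% unique windows had a median of -0.13 on day 14, and those under 50% a median of 0.0048. The B cell list held 0.578 ± 0.0619% of counts in Implant and 0.371 ± 0.0623% in NoImplant nodes on day 14. Of its 10 genes 5 rose, where 3.44% of all genes were called higher. The adipocyte list held 0.0581 ± 0.0270% in Implant and 0.384 ± 0.239% in NoImplant nodes, and the part of either list in the ribosomal protein values was not tested.

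**Figure D5:**
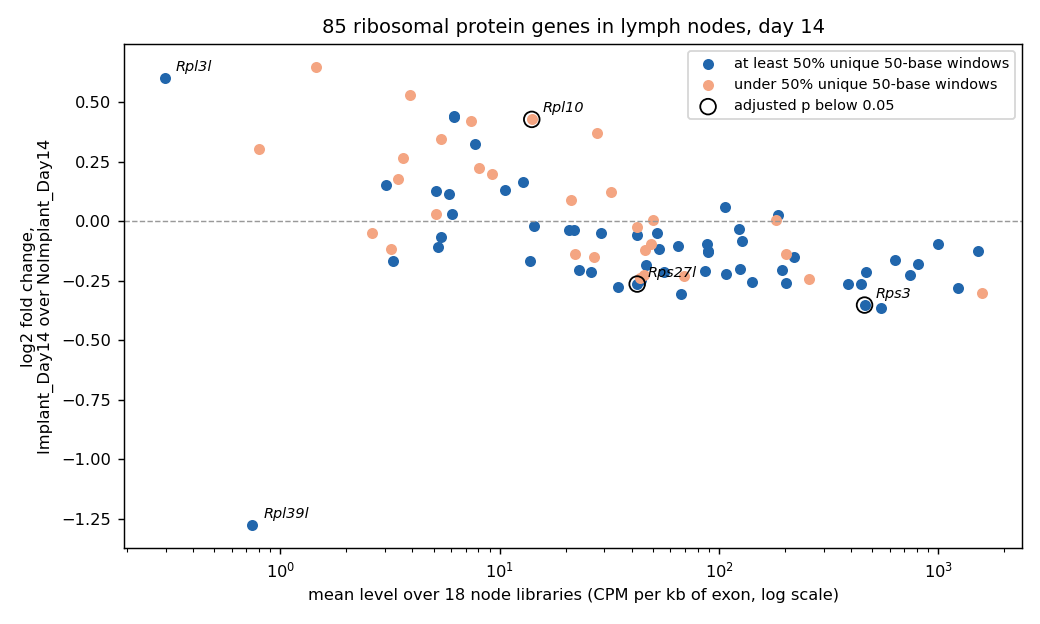
Log2 fold change of Implant over NoImplant nodes on day 14 (vertical axis) against the mean level of each of 85 ribosomal protein genes over 18 node libraries (horizontal axis, CPM per kb of exon, log scale), coloured by the share of unique 50-base windows. The 3 circled genes passed, Rpl10 above 0 at 0.43 and Rps27l and Rps3 below it at -0.26 and -0.35, and most genes of high level lie below 0.

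Rpl3l varied between node libraries together with muscle genes. It had 0.0849, 0.404 and 0.0777 CPM in Implant, 0.0730, 0.623 and 1.79 CPM in ContraImplant and 0.0425, 4.41 and 0.474 CPM in NoImplant nodes on day 7, and at most 0.210 CPM on day 14. The NoImplant library at 4.41 CPM and the ContraImplant library at 1.79 CPM were also the ones with the largest muscle share of day 7, 0.203 and 0.125% of counts, where the lowest of that day had 0.0113%. Rpl3 itself had 99.9, 115 and 104 CPM in Implant and 101, 98.3 and 111 CPM in NoImplant nodes on that day. The stalk genes did not pass in any node comparison; Rplp2 had 375, 439 and 395.5 CPM in Implant and 494, 466.3 and 633 CPM in NoImplant nodes on day 7, at -0.40 ± 0.16 (adjusted p = 0.219). With 3 nodes against 3 an exact permutation test cannot go below 0.1, so paralog ratios in nodes are given as values only. Group means of the log2 ratio of Rps27l to Rps27 lay between 2.48 and 2.87, and those of Rpl22l1 to Rpl22 between -3.00 and -2.89.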

How the data were processed

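The authors deposited unnormalised gene counts, whole numbers in 1 table per tissue. Tissues were flash frozen per the labels' protocols, RNA was taken with RLT from nodes and Trizol from joint tissue, and 100 ng of total RNA went into NEBNext Ultra II libraries. Per the submitters' processing notes, fastp, STAR and build mm10 were used, with versions, counter, annotation, strand setting and treatment of multiply mapping reads not given in the sources used here. Overlapping genes and near-identical copies are therefore uncertain.

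Identifiers were matched to GENCODE M21, for 36591 joint and 54723 node genes, with 1-based mm10 positions. Counts were tested with edgeR 4.0.16 in R 4.3.3 (filterByExpr at a minimum count of 10, TMM, quasi-likelihood F test, 1 fit per tissue over all groups, Benjamini-Hochberg over the genes of a comparison), which kept 16149 joint and 18312 node genes. The 19 comparisons were not adjusted together. Standard errors are the size of the log2 fold change divided by the root of F. CPM is on the TMM scale. Paralog ratios used counts plus 0.5 and SciPy 1.17.1 in Python 3.11.15. DESeq2 1.42.0 was an alternative. The other lists under library totals, the share of all genes at an unadjusted p, and single genes without RST day 3 replicate 1 were added after seeing the data. The test was checked on simulated data. No table column was left unused. Sequences are from RefSeq windows of GRCm38.p6.

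Replicates were separate libraries: chi-square over degrees of freedom between 2 of a group was at least 8.27 in joint tissue and 11.6 in nodes. Sample names give Implant and ContraImplant nodes of one number to the same animal, and their deviations correlated at 0.16 to 0.50 on day 7 and 0.33 to 0.61 on day 14; for RST days 21 and 14 same-numbered libraries correlated at 0.16 to 0.82. In both cases a block left the number of genes called at 0.

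Named genes are the paralogs with their parents, the stalk genes, Rpsa, the 3 largest rises and falls per comparison among genes called with ranges that do not overlap, and the 5 highest and lowest levels per tissue, of which 1 is not reported here. Rps14, Rpl41 and Rps6, and genes of the other lists, were chosen after their values were seen. The gene set and the lists were chosen with earlier results of these data known.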

Additional observations from a re-analysis of the deposited data

Results flagged for a closer look

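In groups of 4 joint libraries, 20 values of 156 groups tested lay apart from the other 3 libraries by Dixon's ratio of gap to range, where chance gives about 1 in 20 groups. Of these, 9 were high values of RST day 3 replicate 1: Rplp0 at 1139 CPM (next highest 900.5), Rplp1 at 859.7 (598.6), Rplp2 at 389.9 (252.1), Rpl22 at 286.1 (219.7), Rps27 at 211.2 (148.9), Rpl36 at 183.8 (128.7), Rpl36a at 176.0 (122.2), Rps27l at 124.2 (92.62) and Rpl39 at 120.6 (82.27). In RST day 3 the log2 ratio of Rps27l to Rps27 was also lowest in 1 library, at -0.7662, where the next was -0.6917. The depth of that group was lowest in replicate 1, at 17842090 counts. Rpl41, at 578.1 CPM in replicate 1 and 363.5 CPM in the next highest library, was not among the genes tested in this way.

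On RST day 7 replicate 2 was low for Rpl7 at 290.1 CPM and for Rplp0 at 803.7 CPM. On RST day 14 Rpl13a was high at 10.51 CPM in replicate 2 and Rpl7 low at 250.7 CPM in replicate 1. On RST day 21 Rplp0 was low at 650.0 CPM in replicate 2 and Rps10 low at 0.7357 CPM in replicate 1.

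In LST tissue the log2 ratio of Rpl3l to Rpl3 was high in 1 library at 3.911, where the other 3 lay at 3.684 to 3.686, and that of Rps27l to Rps27 at -0.5519. The same group held high values of Rpl7 at 249.1 CPM and Rps27l at 90.09 CPM in replicate 2.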

How the results depend on the processing

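Under 6 alternatives to the test (2 other scalings, TMM without the ribosomal protein genes, no filter on low counts, DESeq2 and a replicate block), 523 of 558 values of named genes counted as the same, and 699 of 738 did when 1 library was left out. A value counted as the same if it kept its direction and side of the threshold. Where neither fit passed, a change of direction by less than the standard error also counted as the same. With library totals alone the genes called were 56 on day 14, 13 on day 21 and 12 for RST day 7 against day 3. For Implant against NoImplant on day 14 they were 4 (3 higher, 1 lower). The medians of the set were 0.35, 0.21, -0.18 and -0.06 in that order, against 0.33, 0.14, 0.05 and 0.04 over all genes. On day 14, Rpl36 then stood at 0.022 and Rplp0 at 0.26 (adjusted p = 0.0135). DESeq2's size factors gave 3 on day 21. Without the filter the counts were 3 on day 21, 2 for RST day 35 against day 21, and 1 for Implant against NoImplant on day 14. DESeq2 gave 2 for RST day 35 against day 21, 2 and 8 for Implant against NoImplant on days 7 and 14, 1 for Implant and 2 for NoImplant day 14 against day 7. With totals, added after seeing the data for the other lists, the called genes were 40 (36 higher) of the mitochondrial ribosomal list on day 3, and on day 7 21 (17 higher) of the initiation factors and 23 (22 higher) of the assembly list, and 13 (11 higher) of the regulators on day 3. The replicate block, where numbers do not pair animals, gave 5 for Implant against NoImplant on day 14 and changed no other count by over 1.5 times.

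Leaving out 1 library gave 80 to 82 genes called for RST day 3 over LST, 52 to 57 for day 7, 10 to 14 for day 14 (10 without RST day 14 replicate 2), 2 to 6 for day 21 (2 without RST day 21 replicate 2 or 4, 3 without LST replicate 1, 2 or 3) and 2 for day 35; 23 to 67 for RST day 7 against day 3, 37 to 62 for day 14 against day 7, 0 to 2 for day 21 against day 14 (2 without RST day 21 replicate 2) and 0 to 2 for day 35 against day 21 (2 without RST day 21 replicate 1 or 3, 0 without RST day 21 replicate 2 or 4 or RST day 35 replicate 2, 3 or 4). Of all genes, 64.7 to 67.2% were called in these day 3 fits, 72.2 to 74.7% on day 7 and 46.8 to 58.2% on day 14. On day 21 it was 15.2 to 30%, and on day 35 it was 1.11 to 3.31%. Between neighbouring days it was 34.6 to 39.7%, 26.3 to 46.1%, 0.0122 to 27.2% and 0.213 to 11.4%, in the order above. The log2 ratio of Rpl3l to Rpl3 stayed at -4.31 to -0.52 relative to LST over the 5 days, and that of Rpl39l to Rpl39 at 1.36 to 3.41. For these ratios 3 libraries against 4 are too few for the exact test to pass, so this speaks of direction only. In nodes the range was 0 to 3 for Implant against NoImplant on day 14 (3, of them 2 higher, without NoImplant replicate 1) and 0 to 7 for Implant against ContraImplant on day 7 (7, all higher, without ContraImplant replicate 1), and 0 in the others. In the fit with 3 called, 8.33% of all genes were called, and in the fit with 7 called, 10.9%. Both shares of the set lie below this background.

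With the muscle list left out of the totals the share of counts was 2.69, 1.87, 1.75 and 1.66% on RST days 7, 14, 21 and 35 against 1.56% in LST tissue, and without mitochondrially encoded genes 1.63, 1.498 and 1.45% on days 14, 21 and 35 against 1.35%. The cause of these differences between settings was not tested. Rpl39l, Rpl36al, Rps10 and Rpl24 rest on few reads, which limits their precision.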
